A study of Mus musculus with 60 samples.

Results

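Lung RNA of mice given the lowest dose of benzo(ghi)perylene (BghiP), named D1, was compared with lung RNA of vehicle mice, named D0. The members were the lung samples titled D1 or D0, 5 mice each, and made up 10 of the 60 samples of the series. D1 mice received 6.25 mg/kg-bw/day of BghiP in olive oil by daily gavage for 28 days, and D0 mice received the oil alone. All were male Muta Mouse, about 10 weeks of age, a transgenic strain that carries a bacterial lacZ reporter for counting mutations, and tissue was taken 72 hours after the last dose. The other 50 samples were lungs at 12.5 (D2) and 25 (D3) mg/kg-bw/day and the liver and forestomach of the same 20 animals. RNA came from random sections of each frozen organ, so the mix of cell types could differ between animals. In such bulk RNA, fewer cells of a type and less RNA per cell cannot be told apart. Each lung was hybridised in Cy5 against a Cy3 reference pooled from mouse cell lines, and a value is the log2 ratio of lung to reference.

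BghiP is a large polycyclic aromatic hydrocarbon. Many compounds of this class bind the aryl hydrocarbon receptor, a ligand-activated transcription factor that pairs with ARNT and switches on the genes of enzymes that metabolise them, such as Cyp1a1 and Cyp1b1. Metabolites of some of these compounds form DNA adducts, and the damage can activate p53, which drives genes of cell cycle arrest and cell death. The lung surface is covered by the mesothelium, a single sheet of flat cells that carries genes of its own, among them Msln, Upk3b and Wt1. These systems were described by gene lists beside lists for the clock, stress, immune, matrix and Wnt genes and for 16 cell types, 36 lists in all.

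The lung label was matched by its markers. All 10 tested markers of alveolar type 2 cells, the surfactant makers, all 9 tested markers of alveolar type 1 cells and all 16 endothelial markers were well above background on every lung array. Between 34.9% and 58.6% of probes were well above background on the 10 arrays, and each array correlated with the mean of the others of its group at 0.907 to 0.982. The lowest value belonged to D0 mouse 1, in which the mean of 9 skeletal muscle markers was 4.98 above the D0 mean on the log2 scale, against -1.56 to -0.76 in the other D0 mice and -1.50 to -0.65 in D1. Its 6 squamous epithelium markers averaged 2.98 above the D0 mean, against at most -0.60 in the other D0 mice. D0 mouse 2 had the highest heat shock genes (1.07), D1 mouse 8 the highest fat cell genes (2.84) and D0 mouse 4 the lowest heart muscle genes (-1.76). Their part in the results was not tested beyond the values without each mouse given below. Each of the 5 slides carried 1 lung of every dose, always in the same column for a dose, so position on the slide and dose cannot be told apart.

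**Figure D1:**
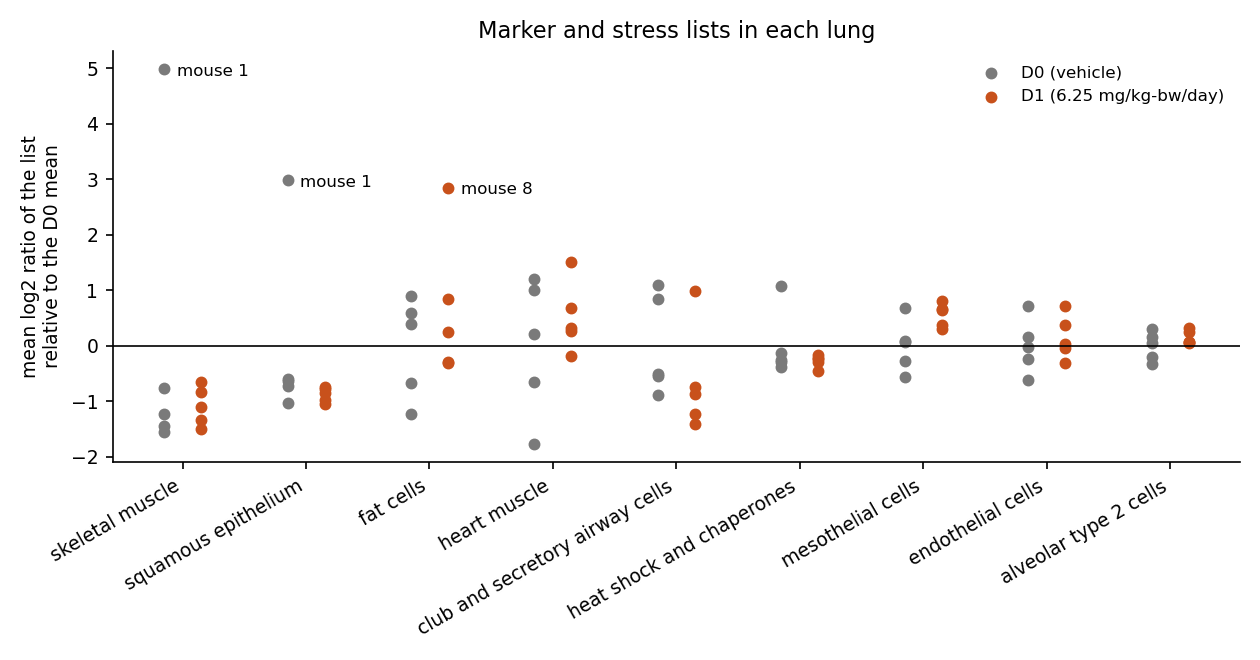
Mean log2 ratio of the members of 9 gene lists (horizontal axis) in each D0 (grey) and D1 (orange) lung, relative to the D0 mean of each gene. D0 mouse 1 stands at 4.98 for skeletal muscle and 2.98 for squamous epithelium, D1 mouse 8 at 2.84 for fat cells, and the 5 D1 mice lie between 0.31 and 0.81 for mesothelial cells against -0.55 to 0.67 in D0.

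No probe was called at D1. Of 31022 probes tested with slide as a block, 0% passed an adjusted p of 0.05 with at least a 1.5-fold change, and 0% passed the adjusted p alone. The lowest adjusted p was 0.402 (limma, Benjamini-Hochberg). Without the adjustment, 2907 probes (9.37%) had a p under 0.05, where equal numbers over the range of p would give 1551. Of all probes, 5.39% were higher in D1 at an unadjusted p under 0.05 and 3.98% were lower (5.16% and 1.71% with the scanner's processed signals), while 51.4% were higher by any amount. The median change was 0.0037 on the log2 scale and the median standard error 0.088. Only 34 probes were higher and 124 lower by 1.5-fold or more, and 38 of them also had an unadjusted p under 0.05. Arrays of a slide resembled each other, and without the block the count at an unadjusted p under 0.05 was 688, below the 1551 of equal numbers, with a lowest adjusted p of 1. No gene below is therefore a called change, and the p-values of single genes are unadjusted unless said otherwise.

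**Figure D2:**
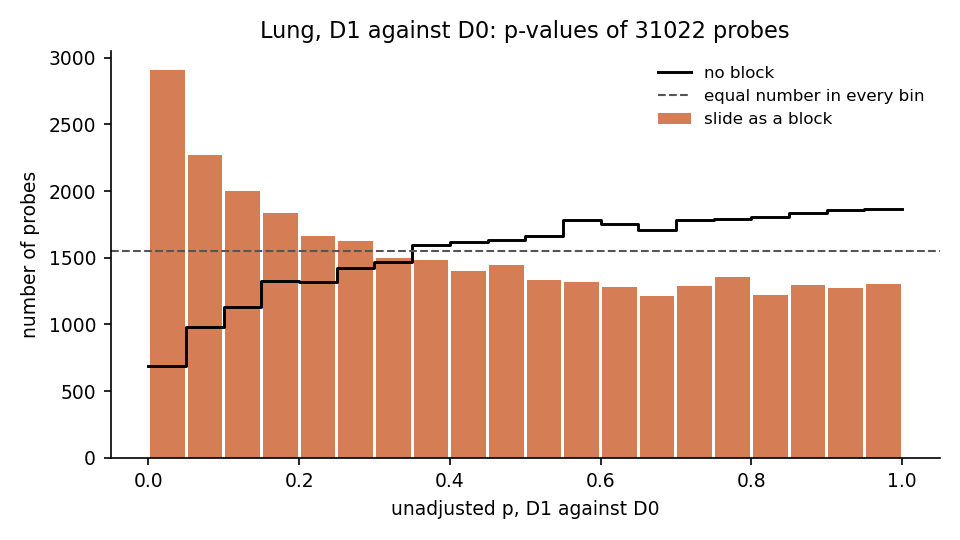
Number of probes (vertical axis) in 20 equal bins of unadjusted p (horizontal axis) for D1 against D0 in lung, with slide as a block (bars) and without it (line), beside the 1551 of equal numbers (dashed). The bin under 0.05 holds 2907 probes with the block and 688 without.

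Mesothelial markers gave the most uniform difference. All 11 tested markers were higher in D1, by 0.30 to 0.83 (median 0.54, against 0.0037 over all probes), and 9 of the 11 had an unadjusted p under 0.05, against 5.39% of all probes, but none was called. Calb2 was below the filter, and Muc16 had no probe with its symbol. The list had been drawn up in part from earlier results of these data, and its members share the same 10 arrays. Its mean was higher in D1 on 5 of 5 slides, by 0.24, 0.94, 0.57, 0.14 and 0.93. Without the slide block, 5 of 11 had a p under 0.05, against 1.31% of all probes. D0 mouse 5 was the lowest D0 lung for 6 of these genes, and without it 6 of 11 had a p under 0.05, against 7.22% of all probes, with a median of 0.43.

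Rspo1, a secreted ligand that strengthens Wnt signalling, had the lowest p of all 31022 probes. Its log2 ratio was 4.21, 3.73, 3.15, 5.32 and 5.17 in D0 mice 1 to 5 and 4.84, 4.64, 3.93, 5.60 and 5.74 in D1 mice 6 to 10. The ranges overlapped, but on every slide the D1 lung exceeded its D0 neighbour. The difference was 0.63 with a standard error of 0.11 (1.55-fold, p 1.95e-05, adjusted p 0.402). Leaving out single mice moved it between 0.53 and 0.73, and it was 0.43 with processed signals.

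Upk3b, a uroplakin membrane protein of mesothelium and bladder, was 0.77, 0.31, 0.43, 1.55 and -0.16 in D0 and 1.14, 1.34, 0.99, 1.77 and 1.23 in D1. Only D0 mouse 4 lay within the D1 range. The difference was 0.71 ± 0.18 (standard error, p 0.00127, adjusted p 0.402), and it was 0.50 without D0 mouse 5. Lrrn4, a leucine-rich repeat membrane protein, was 0.55, 0.04, -0.29, 1.37 and -1.03 in D0 and 0.62, 0.86, 0.81, 1.62 and 0.88 in D1. The difference of 0.83 ± 0.24 (p 0.00346) was 0.50 without D0 mouse 5, the lowest of the D0 lungs. Wt1, a zinc finger transcription factor of mesothelium, was -1.77, -2.18, -1.17, -1.31 and -3.45 in D0 and -1.84, -1.13, 0.06, -1.19 and -2.02 in D1. The groups overlapped between -2.02 and -1.17, and the difference of 0.75 ± 0.30 (p 0.0233) was 0.43 without D0 mouse 5.

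Cldn15, a tight junction claudin, was the tightest of the group in D1. Its values were 1.07, 1.00, 1.07, 1.73 and 1.43 in D0 and 1.81, 1.77, 1.68, 1.88 and 1.79 in D1, so that D0 mouse 4 alone reached the D1 range. It was higher by 0.53 ± 0.17 (p 0.00563). Gpm6a, a membrane glycoprotein, was higher by 0.54, Aldh1a2, which makes retinoic acid, by 0.54, the polarity protein Crb2 by 0.55 and the uroplakin Upk1b by 0.36, each with a p under 0.05. Msln, mesothelin itself, was -0.40, -0.56, 0.49, 0.52 and -1.49 in D0 and -0.17, 1.09, 0.55, 0.04 and -0.74 in D1. Its difference of 0.44 ± 0.28 had a p of 0.139, and the transcription factor Bnc1 differed by 0.30 with a p of 0.161. Msln was 0.22 without D1 mouse 7, and without D0 mouse 5 Bnc1 was 0.072 and Crb2 0.31.

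**Figure D3:**
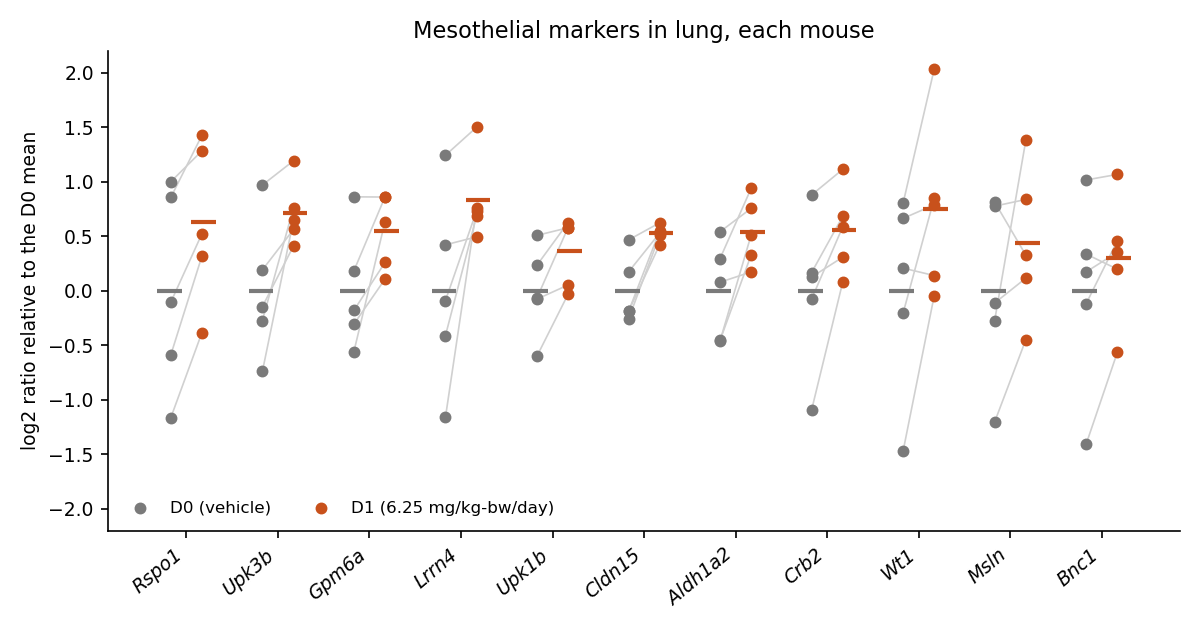
Log2 ratio relative to the D0 mean (vertical axis) of the 11 tested mesothelial markers (horizontal axis) in each D0 (grey) and D1 (orange) lung, with group means as bars and lines joining lungs of the same slide. Every D1 mean lies above its D0 mean, by 0.30 for Bnc1 to 0.83 for Lrrn4, and the groups overlap for all 11 genes.

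The 250 bases before the start of Lrrn4 and Upk3b are shown because these are the mesothelial genes with the largest tested differences that hold a match to the core letters bound by TEAD factors (GGAATG, both strands, match in capitals), the transcription factors of the Hippo pathway. Sequences and starts are RefSeq's (GRCm38.p6), and the 5 motifs were chosen with these windows already seen. Lrrn4 is at chr2:132880863-132881112 (minus strand) and Upk3b at chr5:136038246-136038495 (plus strand).
Lrrn4: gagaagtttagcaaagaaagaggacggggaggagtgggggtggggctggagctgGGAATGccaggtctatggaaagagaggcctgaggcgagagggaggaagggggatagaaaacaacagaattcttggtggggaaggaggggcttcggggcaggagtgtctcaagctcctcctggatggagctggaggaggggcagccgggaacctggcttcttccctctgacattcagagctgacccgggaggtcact
Upk3b: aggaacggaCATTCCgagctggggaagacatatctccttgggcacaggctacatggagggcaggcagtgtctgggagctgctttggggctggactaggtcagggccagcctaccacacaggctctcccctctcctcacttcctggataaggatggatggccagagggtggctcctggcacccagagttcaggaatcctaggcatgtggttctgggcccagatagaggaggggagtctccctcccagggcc
Of the 8 tested mesothelial genes with a window, 4 (Cldn15, Gpm6a, Lrrn4 and Upk3b) held this core, which stood in 12.6% of 32851 windows. The core of the aryl hydrocarbon receptor site (GCGTG) was in 2 of the 8, Aldh1a2 and Bnc1, against 28.2% of windows. A match is a description of letters and not of binding.

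Genes of the aryl hydrocarbon receptor pathway gave no difference past any threshold. Of 12 tested, 7 were higher and 5 lower, none had an unadjusted p under 0.05, and the median was 0.024. Cyp1a1, the enzyme most used as a readout of the receptor, was 0.64, 0.84, 0.43, 1.51 and 1.57 in D0 and 0.58, 1.39, 0.66, 1.23 and 1.34 in D1. The groups lay over each other, and the difference was 0.04 with a 95% interval of -0.67 to 0.75. With processed signals the difference was 0.48. Cyp1b1 was better measured, at -2.14, -2.12, -1.46, -2.18 and -1.81 in D0 and -1.89, -1.82, -1.72, -1.92 and -1.96 in D1. Its difference was 0.08 with an interval of -0.17 to 0.32. Tiparp, a feedback repressor of the receptor, differed by -0.16 (interval -0.35 to 0.02), by -0.086 without D0 mouse 3 and by -0.077 on its other probe.

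Nqo1, a quinone reductase driven by the receptor and by Nrf2, differed by -0.33 (p 0.116), and by -0.07 without D0 mouse 1, which had the highest value (0.05, against -1.65 to -0.63 in the other 9 lungs). Aldh3a1, an aldehyde dehydrogenase induced through the receptor, differed by -0.70 (p 0.0939), and by -0.13 without D0 mouse 1 (3.37, against -0.25 to 0.89 in the other 9 lungs). Arnt, the partner of the receptor, differed by 0.11 (p 0.0698), and by -0.11 on its other probe. Cyp1a2 was well above background on 3 and the repressor Ahrr on 4 of 20 lung arrays, so neither was tested. Of 19 antioxidant genes of Nrf2, 9 were higher and 10 lower (median -0.013), and 2 were higher at an unadjusted p under 0.05, against 5.39% of all probes, or 0 without the slide block. The peroxide scavenger Prdx1 was higher by 0.27 (p 0.00753) and the thioredoxin reductase Txnrd1 by 0.12 (p 0.0373), each on 5 of 5 slides, and a further Prdx1 probe gave 0.16 (p 0.0155). Prdx1 was 0.165 without D0 mouse 3 and 0.17 with processed signals. Of 19 other xenobiotic enzymes of lung, 10 were higher, and 1 was lower at an unadjusted p under 0.05, against 3.98% of all probes. This was Cyp3a13 at -0.42 (p 0.0135), or -0.27 without D0 mouse 1 and -1.27 with processed signals.

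The promoter of Cyp1a1 is shown for the aryl hydrocarbon receptor core it carries (GCGTG, in capitals), at chr9:57697363-57697612 (plus strand, GRCm38.p6). The same core was in the windows of Cyp1b1 and Tiparp, and also in those of the clock genes Dbp, Nr1d1 and Per1.
Cyp1a1: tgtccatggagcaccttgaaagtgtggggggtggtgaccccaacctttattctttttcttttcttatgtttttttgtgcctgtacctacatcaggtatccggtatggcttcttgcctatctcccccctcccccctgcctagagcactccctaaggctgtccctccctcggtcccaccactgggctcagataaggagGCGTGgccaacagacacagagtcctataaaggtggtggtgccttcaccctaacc

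Genes of the p53 pathway, which include Trp53 itself and its regulator Mdm4 beside p53 targets, were evenly divided. Of 28 tested, 14 were higher and 14 lower, with a median of 0.0079. Cdkn1a, the p21 inhibitor of the cell cycle, was -0.41, -0.96, -0.80, -1.43 and -1.96 in D0 and -1.25, -1.30, -1.08, -1.28 and -1.19 in D1. All 5 D1 lungs lay inside the D0 range, and the difference was -0.11 (interval -0.54 to 0.32). Bax, which opens mitochondria in cell death, was -1.30, -1.18, -1.12, -0.82 and -1.15 in D0 and -0.99, -0.96, -0.96, -0.81 and -1.04 in D1. It was higher on 5 of 5 slides, by 0.16 ± 0.08 (p 0.063).

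Gdf15, a stress cytokine, differed by 0.08 (interval -0.46 to 0.62), the p53 inhibitor Mdm2 by -0.10 and the epoxide hydrolase Ephx1 by 0.04 (interval -0.13 to 0.21). Gdf15 was 0.33 with processed signals, 0.26 without D0 mouse 2 and -0.009 without D0 mouse 5. Trp53inp1, which aids p53, was the only 1 of the 28 with an unadjusted p under 0.05, against 5.39% of all probes, at 0.19 higher (p 0.0448), while its other probe gave -0.0059. The count was 0 without the slide block and between 0 and 2 without single mice. Of 30 genes of DNA repair and the damage response, 18 were lower (median -0.021), 1 of them at an unadjusted p under 0.05, against 3.98% of all probes. Polh, a polymerase that copies past damaged bases, was that gene, lower by 0.25 ± 0.08 (p 0.00806).

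Cell cycle genes leaned lower, with 18 of 23 below D0, a median of -0.13 and 5 of 23 lower at an unadjusted p under 0.05, against 3.98% of all probes. Ccnb1, the cyclin of mitotic entry, was -3.68, -4.03, -3.04, -4.05 and -4.69 in D0 and -4.41, -4.66, -3.60, -4.49 and -4.79 in D1. It was lower on all 5 slides, by 0.49 ± 0.15 (p 0.00397), although the ranges overlapped. The mitotic kinase Aurka was lower by 0.29, Ccnb2 by 0.28, the spindle motor Kif11 by 0.27 and Ccne1, the cyclin of S phase entry, by 0.22. Ccnd1, the cyclin of G1, went the other way at 0.23 higher (p 0.0302), and the proliferation marker Mki67 differed by -0.37 (p 0.127). The count of 5 became 9 without D0 mouse 5, against 4.84% of all probes. It was 1 without D0 mouse 1 (3.89%), D0 mouse 3 (2.98%), D1 mouse 7 (3.31%) or D1 mouse 9 (3.31%). It was 2 without D0 mouse 4 (4.17%) or D1 mouse 10, 3 without D0 mouse 2 (3.74%) and 0 without the slide block (0.906%). With D0 and D1 arrays fitted alone it was 10, against 2.9% of all probes, and with the scanner's processed signals it was 1, against 1.71%, with 14 of 23 lower. The median was -0.046 with processed signals, -0.21 without D0 mouse 5 and -0.20 without D1 mouse 8.

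Matrix genes leaned higher. Of 12 collagens, 10 were higher (median 0.14) and 4 had an unadjusted p under 0.05, against 5.39% of all probes. Without the slide block the count was 2, against 1.31%. Col1a1, the main fibrillar collagen, was -2.51, -2.53, -2.10, -2.10 and -2.19 in D0 and -1.88, -2.25, -1.98, -1.83 and -1.83 in D1. Only D1 mouse 7 fell inside the D0 range, and the difference was 0.33 ± 0.11 (p 0.00811). The basement membrane chain Col4a2 was higher by 0.26, and the microfibrillar chains Col6a2 and Col6a1 by 0.23 and 0.19. The count of 4 fell to 1 without D0 mouse 5 or D1 mouse 8, and to 2 without D0 mouse 1, 2 or 3 or D1 mouse 7, 9 or 10. The median was 0.080 without D1 mouse 8 and 0.093 without D0 mouse 5.

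Of 21 genes of elastic matrix and TGF-beta, 15 were higher (median 0.099) and 3 of the higher ones had an unadjusted p under 0.05, against 5.39% of all probes, or 6 without D0 mouse 4, against 5.07%. The median was 0.030 without D0 mouse 1, 0.063 without D0 mouse 5 and 0.061 without D1 mouse 10. Loxl1, which cross-links elastin, was -0.63, -1.12, -1.02, -0.03 and -0.40 in D0 and -0.42, -0.30, -0.14, 0.12 and 0.14 in D1. It was higher on 5 of 5 slides, by 0.52 ± 0.14 (1.43-fold, p 0.00216). The ligands Tgfb2 and Tgfb3 were higher by 0.29 (p 0.00759) and 0.21 (p 0.0128), each on 4 of 5 slides, and elastin (Eln) by 0.32 (p 0.0714). Eln was higher by 0.15 with processed signals. Another probe of Tgfb2 gave 0.056 (p 0.619), and that of Loxl1 gave 0.33 (p 0.0235).

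Wnt genes were mixed in direction, with 19 of 28 higher (median 0.036), 5 higher and 1 lower at an unadjusted p under 0.05, against 5.39% and 3.98% of all probes. Without the slide block these were 2 and 0, against 1.31% and 0.906%. The median was 0.097 with processed signals, 0.081 without D0 mouse 5 and 0.069 without D1 mouse 8. Among the ligands, Wnt2 of alveolar fibroblasts was 1.17, 1.07, 0.42, 1.47 and 2.52 in D0 and 1.54, 1.63, 0.47, 1.86 and 2.83 in D1. The spread between slides was wide, but the D1 lung was higher on each of them, by 0.34 ± 0.10 on average (p 0.00447), or by 0.088 with processed signals. Wnt7a was higher by 0.33 (p 0.0465). The receptors Fzd2 and Fzd6 were higher by 0.27 and 0.25 (p 0.00597 and 0.00676).

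Among the inhibitors, the secreted Sfrp2 was -1.52, -1.29, -0.77, -0.85 and -1.91 in D0 and -0.90, 0.30, -0.52, -0.16 and -0.89 in D1. The lowest D1 lungs lay just below the 2 highest D0 lungs, and the difference was 0.83 ± 0.28 (1.78-fold, p 0.00913). Sfrp4 differed in the other direction, by -0.45 (p 0.0362), or by -0.17 without D0 mouse 1.

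**Figure D4:**
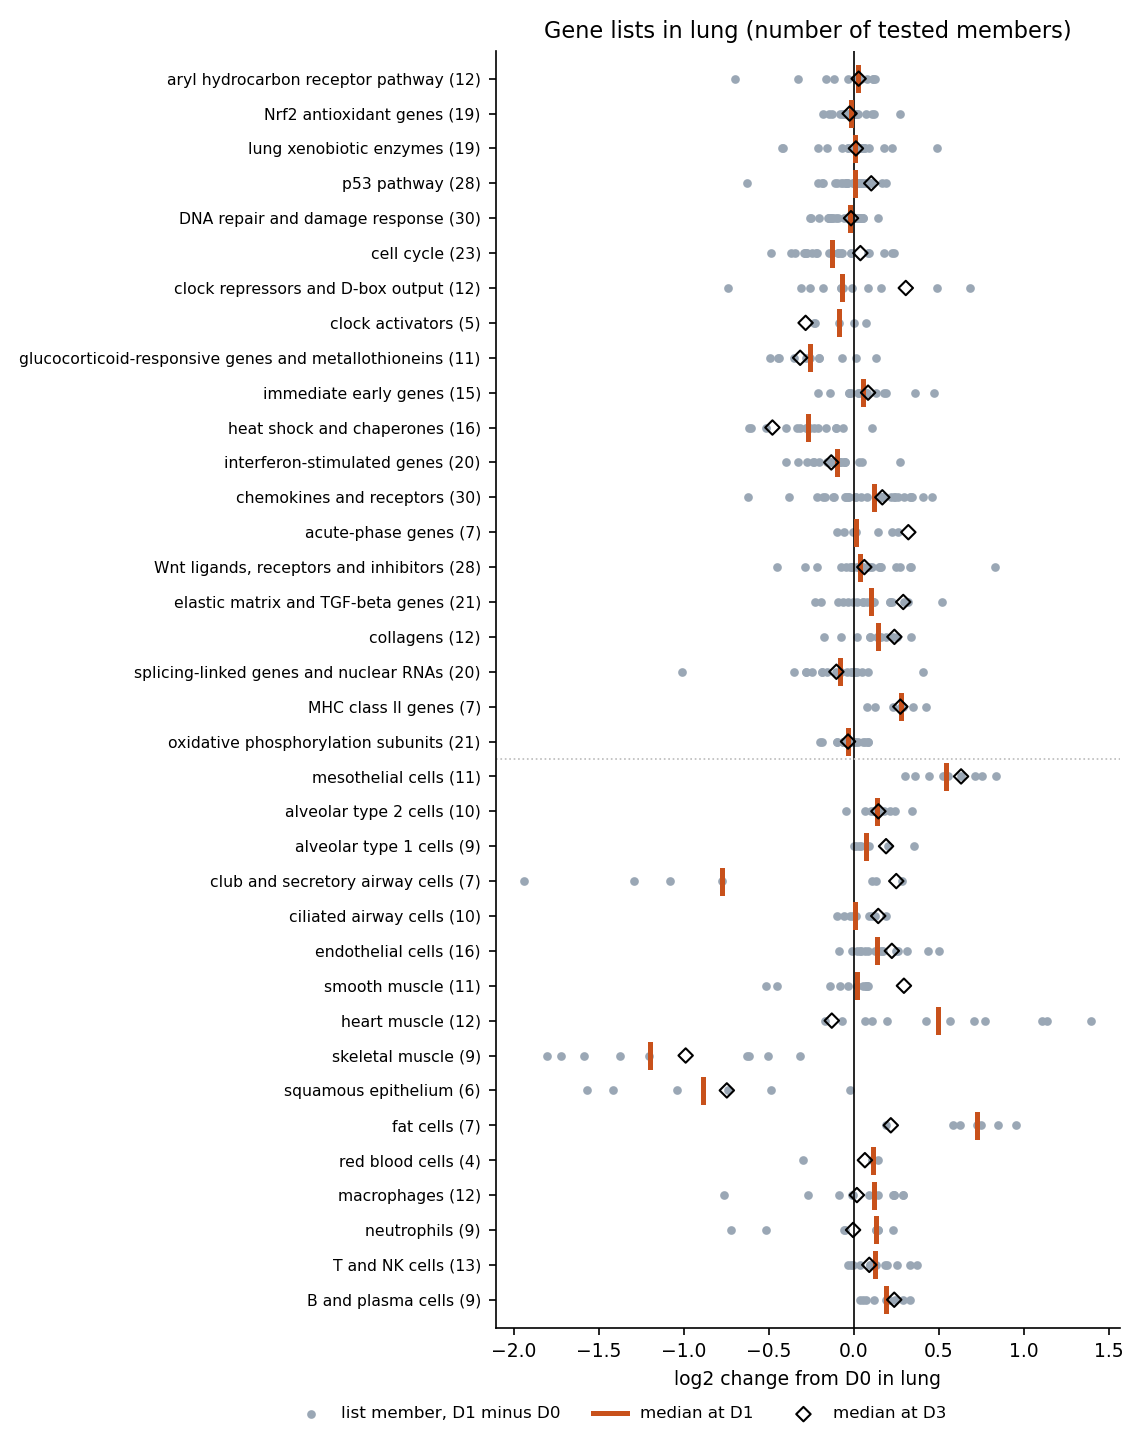
Log2 change from D0 in lung (horizontal axis) of each tested member at D1 (grey points) for the 36 gene lists (vertical axis, number of tested members in brackets), with the median at D1 (orange bar) and at D3 (diamond). All 11 mesothelial points lie above 0 around a median of 0.54, and the aryl hydrocarbon receptor list is centred at 0.024.

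Markers of the gas-exchange surface were slightly higher. Of 10 alveolar type 2 markers 9 were higher (median 0.14), and 4 had an unadjusted p under 0.05, against 5.39% of all probes. The median was 0.086 without D0 mouse 1. Etv5, a transcription factor that maintains these cells, was 1.80, 2.21, 2.15, 2.65 and 2.71 in D0 and 2.52, 2.69, 2.51, 2.74 and 2.77 in D1, higher on 5 of 5 slides by 0.34 ± 0.10 (p 0.00335). The phosphate transporter Slc34a2 (0.24), the lamellar body lipid pump Abca3 (0.18) and the surfactant lipid enzyme Lpcat1 (0.15) were the others, while surfactant protein C (Sftpc) differed by 0.10 (p 0.254). Without the slide block 1 of the 10 had a p under 0.05, against 1.31% of all probes, 1 did with processed signals, against 5.16%, and 2 did without D0 mouse 1, D0 mouse 3 or D1 mouse 8. All 9 alveolar type 1 markers were higher, but by a median of 0.071 and none with a p under 0.05. Without D0 mouse 1, 6 of the 9 were higher with a median of 0.018, and without D1 mouse 10 also 6.

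Of 16 endothelial markers 14 were higher (median 0.14), and Aplnr, Emcn and Pecam1 were higher by 0.44, 0.50 and 0.25 with a p under 0.05, against 5.39% of all probes. Without D0 mouse 3 Emcn was 0.26 and Pecam1 0.10, and with processed signals Aplnr was 0.25. The endothelial median was 0.037 with processed signals, 0.058 without D0 mouse 1, 0.087 without D0 mouse 3 and 0.071 without D1 mouse 10. The count at a p under 0.05 was 0 of 16 without D1 mouse 8 (4.05% of all probes) or the slide block (1.31%), 1 without D0 mouse 3 (3.99%) and 6 without D0 mouse 5 (7.22%). Of 7 secretory cell genes of the airway 4 were lower, with a median of -0.775 and none at a p under 0.05, although 4 had one when D0 and D1 arrays were fitted alone (2.9% of all probes). Their mean was lower in D1 on 5 of 5 slides, by between 0.0916 and 1.58. The median was -0.295 with processed signals, -0.34 without D0 mouse 1, -0.26 without D1 mouse 10 and -1.36 without D1 mouse 6. Bpifa1, an airway secretory protein, ranged from 2.03 to 6.54 in D0 and from 1.05 to 5.95 in D1, and its difference of -1.94 had a p of 0.134. This difference was -2.86 without D0 mouse 4 and -1.16 without D1 mouse 10. The club cell protein Scgb1a1 differed by 0.13 (p 0.189).

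Immune genes gave small differences. All 7 genes of MHC class II antigen presentation were higher (median 0.28), and none had a p under 0.05, against 5.39% of all probes. The 7 stayed higher without any single mouse, but the median was 0.12 without D1 mouse 8 and 0.11 with processed signals, and 6 had a p under 0.05 without D0 mouse 5 (7.22% of all probes), 3 without D1 mouse 9 (3.98%) and 2 without D1 mouse 10 (5.27%). Cd74, the invariant chain, was 3.37, 3.79, 3.64, 3.47 and 3.57 in D0 and 3.72, 3.99, 4.46, 3.61 and 3.44 in D1. Its difference was 0.28 (p 0.063) and was 0.12 without D1 mouse 8. Of 30 chemokines and receptors 19 were higher (median 0.12), with 3 higher and 1 lower at an unadjusted p under 0.05, against 5.39% and 3.98% of all probes. Without D0 mouse 5 these were 8 and 1, against 7.22% and 4.84%, and without D1 mouse 8 or the slide block 1 and 0. Cxcl12, which retains stem and immune cells, was higher by 0.46 (p 0.0107), or by 0.28 without D0 mouse 1, and another probe gave -0.062. Ccl6 was higher by 0.33 and Cxcl16 by 0.17, and Ccl2, which attracts monocytes, was lower by 0.18 (p 0.0496), or by 0.10 without D0 mouse 3. Without D1 mouse 8 the chemokine median was -0.033. Of 20 interferon-stimulated genes 17 were lower (median -0.10), but 9 were lower without D0 mouse 2 (median 0.0018) and 11 without D1 mouse 7 (median -0.045). Ifit2, one of the 3 that were higher, differed by 0.27 (p 0.00233), on 5 of 5 slides.

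Of the 12 clock repressors and output genes 8 were lower (median -0.068, or 0.020 without D1 mouse 10). At an unadjusted p under 0.05, 1 was higher and 2 were lower, against 5.39% and 3.98% of all probes. The lower count was 0 without D0 mouse 1, D1 mouse 10 or the slide block and with processed signals, and the higher count 0 without D0 mouse 2 or D1 mouse 7. Of the 5 activators 3 were lower (median -0.088), 1 of them at an unadjusted p under 0.05, against 3.98% of all probes, and 0 without the slide block. Their median was -0.17 without D1 mouse 10, -0.041 without D1 mouse 6 and -0.145 with processed signals. Nr1d1 (REV-ERBalpha), a repressor of the clock, was 1.75, -0.27, 0.34, 0.71 and 1.82 in D0 and between 1.19 and 2.03 in the 5 D1 lungs. The D0 lungs spread over more than the D1 lungs and enclosed 4 of them, and the difference was 0.68 ± 0.25 (1.60-fold, p 0.014), or 0.40 without D0 mouse 2. Dbp, an output gene, ranged from -0.98 to 1.31 in D0 and from -0.39 to 1.78 in D1 (difference 0.49, p 0.228, or 0.19 without D0 mouse 2 and 0.81 without D1 mouse 10).

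Per1, a repressor that also responds to glucocorticoids, was 1.32, 0.36, 0.14, 0.16 and 0.27 in D0 and 0.61, -0.60, -0.45, -0.86 and -0.15 in D1. It was lower on 5 of 5 slides, by 0.74 ± 0.32 (p 0.0322), and D1 mouse 6 alone lay within the D0 range. Bhlhe41 was lower by 0.26 (p 0.0242), on 5 of 5 slides, and its other probe gave -0.066. The time of day at which each mouse was killed was not given in the sources used here.

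A Per1 window is shown because it holds an E-box (CACGTG, in capitals), the letters that CLOCK and its partner bind, at chr11:69098699-69098948 (plus strand, GRCm38.p6). E-boxes stood in 6.02% of windows and in none of the windows of Dbp and Nr1d1.
Per1: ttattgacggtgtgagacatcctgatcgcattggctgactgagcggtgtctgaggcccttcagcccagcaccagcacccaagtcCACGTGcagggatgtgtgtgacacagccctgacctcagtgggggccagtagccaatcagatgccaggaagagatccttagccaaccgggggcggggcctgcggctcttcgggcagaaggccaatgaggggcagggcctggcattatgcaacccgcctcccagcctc

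Stress-responsive genes were mostly lower, with medians that depended on single D0 mice. Of 11 glucocorticoid-responsive genes and metallothioneins 9 were lower (median -0.26), 2 of them at an unadjusted p under 0.05 against 3.98% of all probes. Without D0 mouse 1, 8 of 11 were lower with a median of -0.082, and without D0 mouse 5 the median was -0.41. The count of 2 became 5 without D0 mouse 5, against 4.84% of all probes, 3 without D0 mouse 4 or D1 mouse 6 and 1 without D0 mouse 2, D1 mouse 7, 8 or 10 or the slide block. Tsc22d3 (GILZ), which mediates glucocorticoid action, was lower by 0.44 ± 0.17 (p 0.0205), and Klf9 by 0.35 ± 0.12 (p 0.0124), both on 5 of 5 slides. Of 16 heat shock genes 15 were lower (median -0.27), and without D0 mouse 2 this was 9 of 16 with a median of -0.045. Dnaja1, a co-chaperone, was -0.35, 1.80, 0.18, 0.26 and -0.15 in D0 and -0.10, 0.03, -0.26, -0.21 and -0.28 in D1. D0 mouse 2 stood far above the rest, and the difference of -0.51 was -0.16 without it.

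Markers of tissues beside the lung moved with single animals. All 9 skeletal muscle markers were lower (median -1.20) and all 6 squamous markers were lower (median -0.89), and without D0 mouse 1 the medians were -0.066 and -0.056. All 7 fat cell markers were higher (median 0.72), and without D1 mouse 8 the median was -0.21. The 12 heart muscle markers had a median of 0.50, and of 0.19 without D0 mouse 4. The mesothelial median stayed between 0.43 and 0.65 over all 10 such omissions.

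Splicing-linked genes were lower in 15 of 20 cases (median -0.079), 5 of them at an unadjusted p under 0.05, against 3.98% of all probes. Without the slide block 1 was lower at such a p, against 0.906%. Without D1 mouse 6 or D1 mouse 10, 12 of 20 were lower, with medians of -0.0093 and -0.016. Rsrp1, a serine and arginine rich nuclear protein, was -2.79, -2.32, -0.75, -0.93 and -0.97 in D0 and -3.15, -2.63, -2.81, -3.01 and -1.19 in D1. It was lower on 5 of 5 slides, by 1.01 ± 0.33 (0.498-fold, p 0.00701), though D0 mice 1 and 2 lay within the D1 range. The splicing kinase Clk4 was lower by 0.25 and the nuclear noncoding RNA Kcnq1ot1 by 0.35, while the splicing factor Srsf5 was higher by 0.41 (p 0.0059). Other probes of Clk4 and Kcnq1ot1 gave -0.096 and -0.099.

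The 5 D1 lungs lay above all 5 D0 lungs for 54 probes (0.174%) and below all of them for 39 (0.126%). The genes named here come from the 10 in each direction with the largest difference and an unadjusted p under 0.05, and none was called. The highest difference was that of Zbtb22, a zinc finger protein, at 0.11, 0.02, 0.26, 0.29 and 0.06 in D0 and 0.39, 0.55, 0.59, 0.51 and 0.32 in D1 (0.32 ± 0.08, adjusted p 0.402). Slc17a5, a transporter of the lysosome, was higher by 0.26, and Olfml3, a secreted matrix protein, by 0.30. Mxra7 was higher by 0.29, Pkd1 (polycystin 1) by 0.26, and Socs5, Ccdc71, Zkscan7 and Mmab by 0.24 to 0.25.

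On the lower side, Kmt5a, which methylates histone H4, was -0.49, -0.53, -0.30, -0.53 and -0.55 in D0 and -0.77, -1.03, -1.22, -0.87 and -0.59 in D1 (difference -0.41, adjusted p 0.402). Panx1, a membrane channel that releases ATP, was 0.56, 0.36, 0.58, 0.40 and 0.53 in D0 and 0.22, 0.15, 0.05, 0.23 and 0.27 in D1, lower by 0.30 ± 0.07 (p 0.000274). The tubulin Tubb2b and Spata31d1b were lower by 0.40, and the histone H4 gene H4c11 by 0.32. The Mediator subunit Med12 was lower by 0.31, the Golgi protein Tmf1 by 0.29, the elongation factor Nelfa by 0.28, the phosphatase subunit Ppp1r15b by 0.27 and Anks6 by 0.22.

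Other probes of these genes did not always match. A further probe of Olfml3 gave 0.31, but further probes of Kmt5a and Tubb2b gave -0.064 and -0.075. The other Med12 probe was higher by 0.20 (p 0.02), that of Slc17a5 gave -0.11 and that of Tmf1 gave 0.077. Further probes gave 0.11 for Mxra7, 0.20 for Ccdc71, and 0.074 and -0.048 for Mmab.

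Lungs of the higher doses were set beside D1 as each dose's own difference from the shared D0 mice. No probe was called between D1 and D2 or between D1 and D3 (0% in each), where 1660 and 1807 probes had an unadjusted p under 0.05 and the lowest adjusted p was 0.679 and 0.22. The mesothelial median was 0.54 at D1, 0.48 at D2 and 0.63 at D3. Rspo1 was 0.63, 0.48 and 0.75 above D0, and Lrrn4 was 0.83, 1.02 and 1.24 above D0. The direct difference between D1 and D3 was -0.11 for Rspo1 and -0.41 for Lrrn4 (adjusted p 0.926 and 0.892).

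Some p53 targets had their largest value at D3. Ephx1 was 0.04, 0.16 and 0.48 above D0 at D1, D2 and D3, and the direct difference of D1 from D3 was -0.44 ± 0.08 (p 5.07e-05, adjusted p 0.239). Bax was 0.16, 0.27 and 0.54 above D0, with a direct difference of -0.38 (adjusted p 0.611). Gdf15 was 0.08, 0.15 and 0.97 above D0, and Cdkn1a was -0.11, -0.01 and 0.67 from it. Dbp stood at 0.49, 1.51 and 1.39, and Per1 at -0.74, 0.20 and 0.16. None of these direct differences passed the adjustment, so D1 was not shown to differ from D3 in any gene. These genes had been picked with their D3 values known, and the D3 values are a description.

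**Figure D5:**
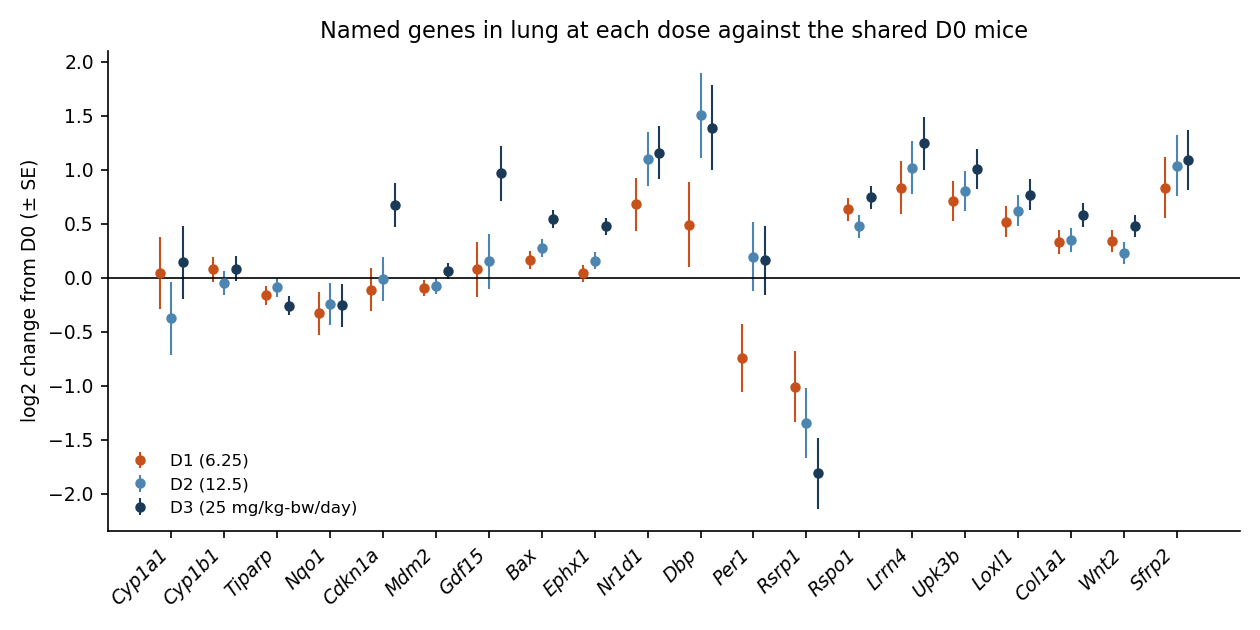
Log2 change from D0 in lung (vertical axis, error bars standard errors) of 20 named genes (horizontal axis) at the low (D1), middle (D2) and high (D3) dose, all against the same 5 D0 mice. Lrrn4 stands at 0.83, 1.02 and 1.24, Gdf15 at 0.08, 0.15 and 0.97, and Cyp1a1 at 0.04, -0.37 and 0.14.

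The D1 difference in lung was also tested against the D1 difference in forestomach and liver of the same mice. Of 33255 probes, 0.012% (4 probes) differed between lung and forestomach and 0% between lung and liver. The 4 were Pcsk2 (-1.10), Cdhr5 (-1.19), Sctr (-0.99) and a probe named only by the transcript ENSMUST00000105696 (-0.76), each with an adjusted p of 0.0375, and they are named because the count is small. With mouse as a replicate block, which pairs the tissues, the adjusted p of each was 0.0928 and none was called. All 4 were higher in D1 forestomach, by 0.54 to 0.98, while in lung Pcsk2, Sctr and the unnamed transcript differed by -0.13, -0.18 and -0.22 and Cdhr5 was well above background on 2 arrays only. The forestomach rise was not uniform. Pcsk2 was 0.26 and 0.31 in D1 mice 6 and 8, against 1.26, 1.63 and 1.78 in mice 7, 9 and 10. Its D0 values were -0.11 to 0.20. Cdhr5 (0.007 and 0.37) and Sctr (0.16 and 0.19) were also low in mice 6 and 8. The unnamed transcript ranged from 0.26 to 0.93 in D1.

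Of the 11 mesothelial markers, all higher in D1 lung, 9 were lower and 2 higher in D1 forestomach, and the difference between the tissues passed the test for none of them. Lrrn4 was 0.83 in lung and -0.46 in forestomach (difference 1.29, adjusted p 0.0556) and Upk3b 0.71 and -0.39 (difference 1.11, adjusted p 0.0799). The 2 with the same sign were Rspo1, at 0.63 in lung and 0.62 in forestomach (difference 0.02, adjusted p 0.992), and Gpm6a, at 0.54 and 0.51 (adjusted p 0.978). The Wnt inhibitor Sfrp2 was 0.83 in lung and -1.10 in forestomach (difference 1.94, adjusted p 0.0539).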

How the data were processed

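Lung RNA labelled with Cy5 was hybridised with a common Cy3 reference, with no dye swap per the labels. The deposited scanner files hold spot intensities and quality flags from Feature Extraction 10.7.3.1, with a log10 ratio per spot, and their headers name mm9. The deposited series table holds log2 ratios that the authors obtained by LOWESS from median signals, with no background subtracted. Fold changes computed by the authors were not used.

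Here, log2 ratios of median signals were loess-normalized array by array with limma 3.58.1 (R 4.3.3; files read with version 1.17.8 of data.table). Control spots (3671 of 62976) had no weight, spots with an outlier flag (0.46% of values) were set missing, none was saturated, and replicate spots were averaged into 55681 probes. These ratios correlated with the deposited ones at 0.996 to 0.999. Of these, 31022 probes that exceeded background well in Cy5 on 5 or more of the 20 lung arrays were tested. Symbols came from RefSeq accessions matched to a table of GRCm38.p6, used for names and for the promoter windows (26413 probes, 47.4%).

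A linear model of 4 dose groups and 5 slides was fitted to the 20 lung arrays with lmFit and eBayes, 2-sided, with Benjamini-Hochberg adjustment. A call needed an adjusted p of 0.05 or less and 1.5-fold. limma stood in for MAANOVA, the test of the study, which was not run. Tissue contrasts used all 60 arrays with slide within tissue (33255 probes), and mouse as a replicate block as an alternative, since a number marks the same animal in each tissue. No numbers pair D0 with D1 mice.

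Each list used the brightest probe of a gene. Named were 15 set genes, the 10 non-overlapping genes with the largest difference in each direction, up to 4 members per list with the lowest p, and markers where 1 array stood apart. Other genes in the text were chosen after their values were seen, and a few genes that these rules name are not reported here. The comparison, the lists and the set genes were chosen with earlier results of these data known. The 10 alternatives were no block, a random block, D0 and D1 arrays alone, normexp with an offset of 50, processed signals, deposited ratios, Aquantile, no filter, a filter on all 20 arrays and a variance trend with robust estimation, and each of the 10 arrays was also left out in turn. The script was tested on simulated data. With 5 mice per group, the number of arrays limits the precision.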

Additional observations from a re-analysis of the deposited data

Results flagged for a closer look

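Of 284 sets of 5 lungs (list means and single genes, in D0 and in D1), 24 held a lung far from the other 4. Chance would give about 1 in 20 groups, or 14.2, if the sets were independent and not selected. Sets of a group shared the same arrays, and list means overlapped with their own members. Some markers were named because 1 array stood apart, so 24 cannot be judged against 14.2. Among list means, relative to the D0 mean, D0 mouse 1 stood at 4.98 for skeletal muscle, 2.98 for squamous epithelium and 0.37 for oxidative phosphorylation. D0 mouse 2 stood at 1.07 for heat shock genes and D0 mouse 5 at 0.53 for T and NK cells. D1 mouse 6 stood at 0.078 for MHC class II genes, below the others, and at 0.99 for secretory airway cells, above them.

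Among the log2 ratios of single genes, D0 mouse 1 was high for Per1 (1.32), Aldh3a1 (3.37), Tnni2 (6.65) and Krt13 (5.53), D0 mouse 2 for Dnaja1 (1.80), D0 mouse 3 for Kmt5a (-0.30) and D0 mouse 4 for Ppp1r15b (-0.21). D1 mouse 6 was high for Bpifa1 (5.95), and D1 mouse 7 for Cxcl12 (1.60). D1 mouse 8 was high for Zkscan7 (0.073), Ccne1 (-1.44) and Tgfb3 (0.41) and low for Ephx1 (0.79). D1 mouse 9 was high for Slc17a5 (1.30) and Lrrn4 (1.62). D1 mouse 10 was high for Rsrp1 (-1.19) and low for Anks6 (-0.42).

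The D1 difference in lung minus that in forestomach passed the test for Pcsk2 (-1.10), Cdhr5 (-1.19), the transcript ENSMUST00000105696 (-0.76) and Sctr (-0.99), by the interaction contrast in limma. With mouse as a replicate block the adjusted p of each was 0.0928, and none passed with that block or with no block.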

How the results depend on the processing

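The count of called probes and the count at an adjusted p of 0.05 or less stayed at 0 under all 10 alternatives and all 10 omissions of 1 array. The count at an unadjusted p under 0.05, 2907 here, was 688 with no slide block and 4422 with no filter, and lay between 2164 and 3743 when single arrays were left out. The 4 probes called for lung against forestomach became 0 with mouse as a replicate block and 0 with no block. No list median moved by more than the spread between mice, but many changed in size or sign when 1 array was left out, as given below. Over the single genes and settings, 31 values in 27 genes changed sign, none of them called. Large differences among them were those of Sbsn (-1.04, or 0.0096 without D0 mouse 1), Perp (-0.63, or 0.046 without D0 mouse 1), Fabp4 (0.85, or -0.21 without D1 mouse 8) and Adipoq (0.75, or -0.33 without D1 mouse 8). Cyp1a1 (0.043) lay between -0.18 without D0 mouse 3 and 0.48 with processed signals, and Cdkn1a was 0.076 without D0 mouse 1. Of the 10 alternatives, processed signals moved the most values, with 68 of 187 genes and 17 of 36 list medians changed by over 1.5 times or in sign, against at most 1 gene and 7 medians for each of the others. Larger with them were Zkscan7 (0.94), Anks6 (-0.81), Mxra7 (0.72), Med12 (-0.71), Cyp3a13 (-1.27), Ifit2 (0.55), Lrrn4 (1.31), Crb2 (1.20), Bnc1 (0.99) and Emcn (1.01). Smaller were Wnt2 (0.088), Pkd1 (0.13), Nelfa (-0.13), Slc17a5 (0.16), Trp53inp1 (0.092), Slc34a2 (0.12), Aplnr (0.25), Ccl6 (0.17) and Ccnb2 (-0.16). Leaving out single arrays moved 13 to 48 of the 187 genes and 9 to 24 of the 36 list medians by as much. Both were moved most often without D0 mouse 1, where 6 list medians changed sign. The filter keeps probes bright on 5 of 20 arrays, so a gene above background in fewer lungs, such as Ahrr or Cyp1a2, has no value here.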
